A study of Mus musculus with 6 samples.

Results

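Open chromatin shared by Th9 and Th17 cells and not called in Th2 cells formed a small set of 655 regions, 0.291% of the 225467 regions on chromosomes 1 to 19. Peaks from the 6 deposited lists were merged wherever they overlapped or touched, and a library called a merged region when at least 1 bp of it lay under one of its peaks. The 655 regions had a call from each of the 4 Th9 and Th17 libraries and from neither library of Th2. They were chosen by the presence of these peak calls, so their pattern and strength are given below as a description, with no test. Chromatin accessibility was measured by ATAC-seq, in which the Tn5 transposase inserts sequencing adapters into accessible DNA, in 2 libraries per subset, labelled replicates 1 and 3. Naive CD4+ T cells from the spleen of wild-type C57BL/6 mice were activated with antibodies to CD3 and CD28 in every culture. Th9 cultures received IL-4, IL-2, TGF-β1 and antibody to IFNγ, and Th2 cultures received IL-4, IL-2 and antibody to IFNγ. Th17 cultures received TGF-β1, IL-6, IL-23 and IL-1β with antibodies to IFNγ, IL-4 and IL-2. TGF-β1 was thus the added cytokine that Th9 and Th17 cultures shared and Th2 cultures lacked, but Th17 cultures also differed from the rest in IL-2, IL-4, IL-6, IL-23 and IL-1β. Whether the libraries of a subset came from separate cultures or mice was not stated in the sources used here.

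TGF-β binds the type II receptor, encoded by Tgfbr2, which recruits and phosphorylates the type I receptor, encoded by Tgfbr1. The active receptor phosphorylates SMAD2 and SMAD3, which join SMAD4, enter the nucleus and bind DNA together with other factors. In CD4+ T cells TGF-β turns IL-4-driven differentiation from Th2 towards Th9 and, together with IL-6, favours Th17 cells. The SMAD DNA-binding domain contacts the half-site CAGACA and the palindrome GTCTAGAC.

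Windows of 200 bp at the centre of 7 regions are shown here, read from the forward strand of RefSeq GRCm38.p6, the assembly of the mm10 build. The first 4 are from strong regions in introns of Akap6, Foxp1 and Nrp1 and from the stronger of the regions in Tgfbr2. The others are from 3 of the regions that hold the palindrome GTCTAGAC. Capitals mark any match, on either strand, to the AP-1 word TGANTCA, the word AGATAA of GATA factors, the SMAD half-site or the SMAD palindrome.
Akap6 intron (chr12:53032845-53033044, + strand): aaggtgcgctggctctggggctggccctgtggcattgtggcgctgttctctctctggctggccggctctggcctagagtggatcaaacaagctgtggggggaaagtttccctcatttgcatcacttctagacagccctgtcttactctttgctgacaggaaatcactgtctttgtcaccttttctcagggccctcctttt
Foxp1 intron (chr6:99013523-99013722, + strand): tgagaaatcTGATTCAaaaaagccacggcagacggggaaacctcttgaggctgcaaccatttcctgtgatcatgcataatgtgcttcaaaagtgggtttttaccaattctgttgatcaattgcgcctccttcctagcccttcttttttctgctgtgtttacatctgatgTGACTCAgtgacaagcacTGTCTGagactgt
Nrp1 intron (chr8:128489682-128489881, + strand): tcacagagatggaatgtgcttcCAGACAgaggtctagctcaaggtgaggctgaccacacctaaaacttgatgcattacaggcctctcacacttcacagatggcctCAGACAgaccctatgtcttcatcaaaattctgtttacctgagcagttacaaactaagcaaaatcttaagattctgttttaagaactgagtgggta
Tgfbr2 intron (chr9:116114367-116114566, + strand): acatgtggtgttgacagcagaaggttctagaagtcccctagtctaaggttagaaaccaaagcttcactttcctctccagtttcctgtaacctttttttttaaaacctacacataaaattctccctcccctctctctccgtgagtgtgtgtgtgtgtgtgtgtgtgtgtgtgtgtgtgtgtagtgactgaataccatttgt
Amph, downstream (chr13:19162194-19162393, + strand): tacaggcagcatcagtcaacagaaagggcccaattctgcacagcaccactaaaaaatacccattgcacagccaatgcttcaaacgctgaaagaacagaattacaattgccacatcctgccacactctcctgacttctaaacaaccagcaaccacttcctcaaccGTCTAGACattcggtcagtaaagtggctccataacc
Lcn9, downstream (chr2:25828555-25828754, + strand): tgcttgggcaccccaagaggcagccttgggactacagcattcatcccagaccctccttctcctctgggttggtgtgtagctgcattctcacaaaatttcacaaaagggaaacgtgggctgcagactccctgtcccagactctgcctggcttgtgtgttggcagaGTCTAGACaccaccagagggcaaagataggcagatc
Tmeff1, upstream (chr4:48577214-48577413, + strand): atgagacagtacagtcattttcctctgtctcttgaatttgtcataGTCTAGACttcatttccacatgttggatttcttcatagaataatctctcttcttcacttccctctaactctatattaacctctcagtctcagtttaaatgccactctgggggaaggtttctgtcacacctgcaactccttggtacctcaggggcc

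The Foxp1 window held TGANTCA at both ends and a CAGACA near the right end, whereas the Akap6 and Tgfbr2 windows held none of these 4 words. The Nrp1 window held CAGACA in both of its marked places. In the Amph and Lcn9 windows the palindrome lay towards the right end, and in the Tmeff1 window it lay nearer to the left end.

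The lists carried from 100317 to 142213 peaks. The background coverage that the fold and p-values of a list implied was 5.65 fragments in Th9 replicate 1 and between 11.2 and 17.7 in the other libraries. The lowest fold enrichment called was accordingly 2.11 in Th9 replicate 1 and between 1.71 and 1.83 in the other 5 lists. Promoters of T cell identity genes carried a peak at 11 or 12 of 12 genes in every library, against 1 to 4 of 10 B cell markers, 2 to 4 of 10 myeloid markers and 4 to 7 of 10 CD8 and NK markers. The Il9 promoter was called in both Th9 and both Th2 libraries and in no Th17 library, at percentiles of 88.6 and 90.7 in Th9 and 37.1 and 44.4 in Th2. Il17f was called at its promoter in the Th17 libraries alone and Il13 in the Th2 libraries alone, while the Il5 promoter was called in all 6 libraries. The Il4 promoter was called in both Th9 libraries (89.5 and 92.3), both Th2 libraries (87.8 and 88.3) and no Th17 library. That of Il17a was called in both Th17 libraries (81.4 and 69.5) and in Th2 replicate 3 (36.1).

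The set was small beside those of the other subset pairs. The Th9 and Th2 set, regions that every Th9 and Th2 library called and no Th17 library did, numbered 4615, and the Th2 and Th17 set, formed likewise without Th9, numbered 3494. All 6 libraries called 48805 regions. Of the 19590 regions called in exactly 4 libraries, 3.34% were Th9 and Th17 regions, and 8 of the 15 possible combinations of 4 libraries held more. The count therefore did not stand out among these 15 combinations, which include the Th9 and Th2 set and the Th2 and Th17 set. The 655 regions covered 589.8 kb, with a median width of 750 bp, quartiles of 465 and 1148 bp, and extremes of 226 and 5451 bp. They were spread over chromosomes 1 to 19, from 4 on chromosome 19 to 66 on chromosome 2. Their share of a chromosome's regions ran from 0.122% on chromosome 19 to 0.414% on chromosomes 4 and 7. On chromosome 2 it was 0.321%.

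Most of the shared regions were weak. Strength was measured as the fold enrichment over background of the strongest peak in the region, converted to a percentile within the library's own list, where 100 is the strongest peak. The median percentile was 45.7 and 31.8 in Th9 replicates 1 and 3, and 41.7 and 39.2 in the same replicates of Th17. The corresponding median folds were 2.46, 2.11, 2.07 and 2.03, close to the lowest fold each list contained. Regions open in all 6 libraries had median percentiles of 80.1, 71.7, 78.0 and 72.7 in the same libraries. Regions called in Th9 alone had 33.6 and 25.3 in the Th9 libraries, and those called in Th17 alone had 44.6 and 37.5 in the Th17 libraries. The Th9 and Th2 regions reached 65.6 and 55.8 in the Th9 libraries, whereas the Th2 and Th17 regions reached 49.5 and 41.5 in the Th17 libraries, nearer to the Th9 and Th17 set.

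**Figure D1:**
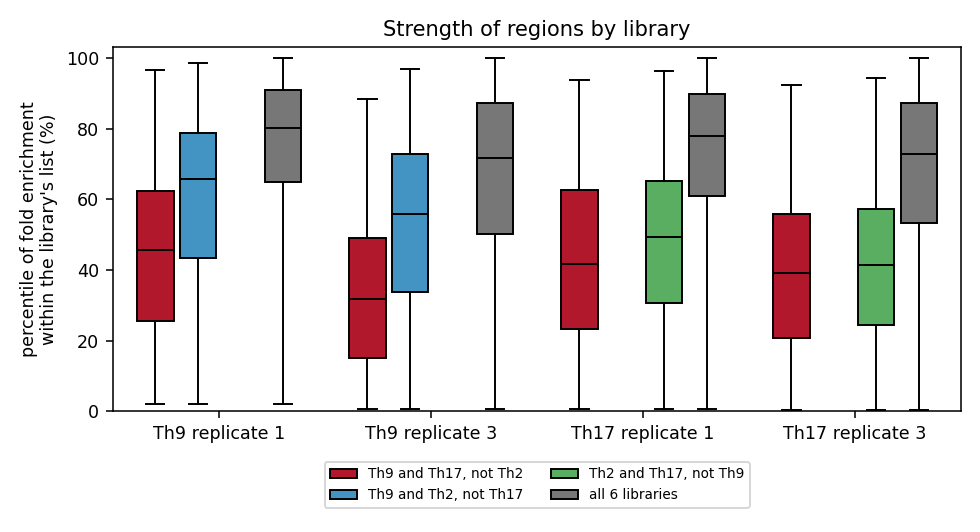
Percentile of fold enrichment within each library's list (vertical axis, %) for the strongest peak of each region, by library and by set of regions. Boxes span the quartiles with the median as a line and whiskers reach the lowest and highest region. The red boxes, the 655 Th9 and Th17 regions, have medians from 31.8 to 45.7, below the grey boxes of regions called in all 6 libraries.

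Averaged over the 4 libraries, the percentile of a region had a median of 38.1 and ran from 6.39 to 91.8. It was at least 75 in 19 regions, at least 50 in 196 and under 25 in 143. All 4 libraries placed the region in the upper part of their lists, at a percentile of at least 50, in 62 regions. Only 1 region, in Akap6, had a fold of at least 4 in all 4 libraries, and 7 had a fold of at least 3. In 534 regions each of the 4 folds was above the lowest fold that either Th2 list contained. The lowest folds of the Th9 lists, 2.11 and 1.83, were already above those of the Th2 lists, 1.81 and 1.73. Only the Th17 folds could therefore decide this count. In the remaining regions at least 1 Th17 fold was no higher than the lowest fold of a Th2 list.

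The libraries ranked the regions differently. Across the 655 regions the percentiles had a Spearman correlation of 0.416 between the Th9 libraries, 0.665 between the Th17 libraries and 0.326 to 0.380 between a Th9 and a Th17 library. These correlations are across regions of the same libraries, which differ in depth, and are a description. Both Th9 percentiles exceeded both Th17 percentiles in 123 regions, the opposite held in 154, and the order was mixed in 378. By the merging rule the peaks of a region overlap or touch in a chain, so some sharing of bases was built in. The values that follow describe its extent and were not set beside another set. In 601 regions the strongest peaks of all 4 libraries shared a stretch, with a median of 191 bp or 30.6% of the region, and in 54 there was no base common to the 4 peaks.

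Of the regions just outside the rule, those with 1 Th2 call were similar in strength and those that missed 1 of the 4 calls were weaker. Those called in all 4 Th9 and Th17 libraries and in 1 Th2 library numbered 2889, of which 2027 were called in Th2 replicate 1 and 862 in Th2 replicate 3. Their mean percentile over the 4 libraries had a median of 39.4, and the Th2 peak had a median percentile of 40.0, with 222 under 10. Regions called in 3 of the 4 libraries and in no Th2 library numbered 2880, with a median of 30.4 over the libraries that called them. Within the set, the nearest Th2 peak lay at a median of 4564 bp, with quartiles of 1985 and 10754 bp and extremes of 5 and 137244 bp. A Th2 peak lay within 1000 bp of 55 regions (8.40%) and within 200 bp of 4. Most regions thus had no Th2 peak called within 1000 bp, but these distances were not set beside those of other regions. Whether a region was the edge of a wider Th2 signal was not tested. The absence of a peak call does not show that the DNA was closed in Th2 cells.

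Nearly all of the shared regions lay away from promoters. Over promoters, taken as up to 1000 bp before or 100 bp after a start of a protein-coding gene, there were 9 regions, 1.37% of the set. A further 52 (7.94%) touched an exon, 270 (41.2%) lay in introns and 324 (49.5%) lay between genes. Over all 225467 regions 6.71% were at promoters, 6.13% at exons, 33.0% in introns and 54.1% between genes, and of regions called in all 6 libraries 25.01% were at promoters. Promoters took 4.20% of the Th9 and Th2 set and 1.75% of the Th2 and Th17 set.

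**Figure D2:**
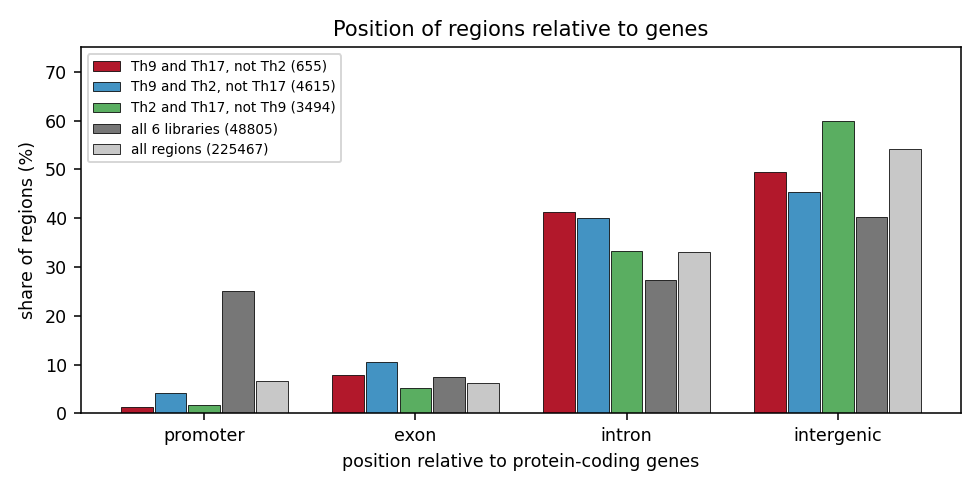
Share of regions (vertical axis, %) over promoters, exons, introns and intergenic DNA of protein-coding genes, for 5 sets with the number of regions in parentheses. Red bars, the 655 Th9 and Th17 regions, are low at promoters (1.37%) and reach 41.2% in introns and 49.5% between genes, while regions called in all 6 libraries have 25.01% at promoters.

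The middle of a Th9 and Th17 region was a median of 47997 bp from the nearest start, against 53877 bp over all regions, 30679 bp in the Th9 and Th2 set and 61748 bp in the Th2 and Th17 set. A start lay within 10 kb of 108 regions (16.5%) and over 100 kb from 216 (33.0%). The 200 bp windows had a median GC content of 50% and a mean of 2.24 CpG, against 49% and 3.29 over all regions and 6.96 CpG in regions of all 6 libraries. Repeats took at least 50% of the window in 222 regions (33.9%), against 29.3% over all regions, 32.5% in the Th2 and Th17 set and 10.6% in the Th9 and Th2 set. Because peaks were judged against 1 genome-wide background, multicopy sequence can be called as open, and its part in these regions was not tested.

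The strongest region lay in an intron of Akap6, which encodes an A-kinase anchoring protein, at chr12:53032691-53033496. Its percentiles were 96.7 and 85.1 in the Th9 libraries and 93.7 and 91.7 in the Th17 libraries, with folds of 9.23, 4.80, 6.77 and 5.67. It was high in all 4, and the nearest Th2 peak was 9850 bp away. No library had a peak at the Akap6 promoter. The next was in an intron of Foxp1, a forkhead transcription factor that maintains quiescence of naive T cells, at chr6:99013483-99013767. Its percentiles were 85.3 and 77.7 in Th9 and 86.9 and 88.8 in Th17. The Foxp1 promoter was open in every library, at percentiles of 81.4 to 88.1, with both Th2 libraries inside or above the range of the rest. The third, at an exon of Itgb2, the β2 integrin subunit of LFA-1, had percentiles of 90.4 and 84.1 in Th9 and 83.2 and 75.6 in Th17 (chr10:77556337-77557874).

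**Figure D3:**
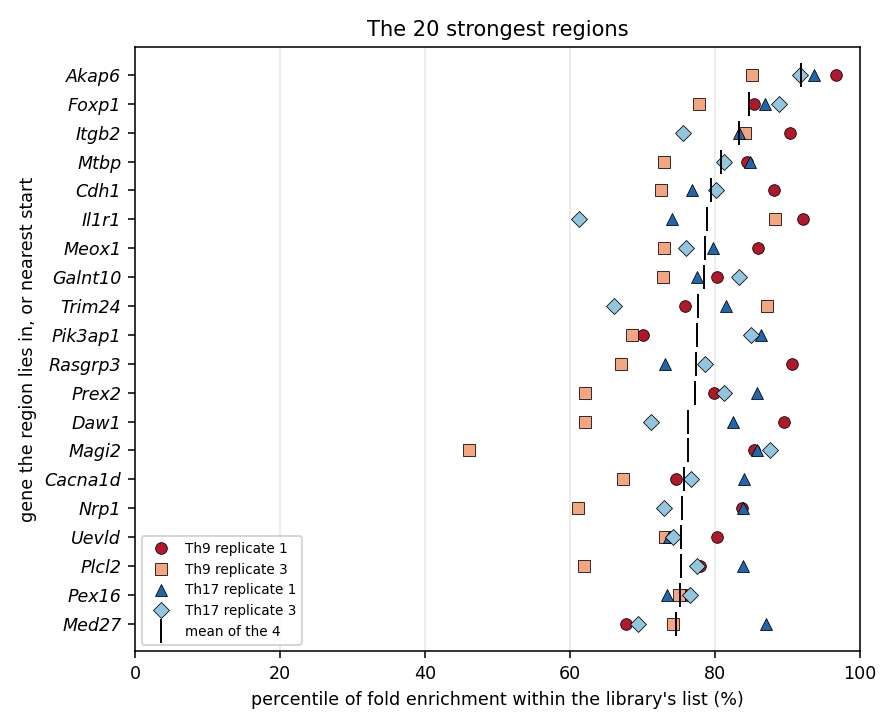
Percentile of fold enrichment within each library's list (horizontal axis, %) for the 20 regions with the highest mean, named by the gene they lie in or the nearest start. Each symbol is a library and the vertical tick is the mean of the 4, which runs from 91.8 for Akap6 to 74.6 for Med27; Th9 replicate 3 gives the lowest value for many of the regions, as for Magi2.

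Il1r1 encodes the receptor for IL-1, the family of cytokines to which the IL-1β in the Th17 cultures belongs. The region at an Il1r1 exon (chr1:40315368-40315817) had percentiles of 92.05 and 88.3 in Th9 and 74.0 and 61.2 in Th17. Both Th9 values were higher than both Th17 values, and the nearest Th2 peak was 8704 bp away. The start nearest to this region was that of another gene, Il1rl2, 8968 bp away. At the Il1r1 promoter 5 libraries had a peak, Th9 replicate 3 being the exception, and the percentiles ran from 46.7 to 62.8.

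An intronic region of Cdh1, which encodes E-cadherin, had percentiles of 88.1 and 72.5 in Th9 and 76.7 and 80.1 in Th17. Nrp1 encodes neuropilin-1, a co-receptor for semaphorins and VEGF that also binds TGF-β. The Nrp1 intronic region (chr8:128487990-128490102) had percentiles of 83.6 and 61.1 in Th9 and 83.8 and 73.0 in Th17, so the values of the subsets overlapped. It lay 1568 bp from the nearest Th2 peak, and outside it the gene held 14 to 16 peaks in Th9 and Th17 and 18 and 22 in Th2.

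Pik3ap1 encodes the adaptor BCAP, which links receptors to PI 3-kinase, and its region had percentiles of 70.0 and 68.6 in Th9 and 86.3 and 85.0 in Th17. It was the reverse of Il1r1, with both Th17 values above both Th9 values. Rasgrp3, an activator of Ras, had an intronic region with percentiles of 90.5 and 66.9 in Th9 and 73.0 and 78.6 in Th17. Plcl2, an inactive relative of phospholipase C, and Cacna1d, a pore-forming subunit of L-type calcium channels, had intronic regions with mean percentiles of 75.3 and 75.6.

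Meox1, a homeobox transcription factor gene, had no peak in the gene body in either library of Th2 and 1 peak in each Th9 and Th17 library. That peak was the shared intronic region, with percentiles of 85.9 and 72.9 in Th9 and 79.6 and 75.9 in Th17, 23659 bp from the nearest Th2 peak. No library had a peak at the Meox1 promoter. Among the other strong regions, Galnt10 (a glycosyltransferase of mucin-type O-glycosylation), Prex2 (an activator of Rac), Magi2 (a membrane scaffold protein), Med27 (a Mediator subunit) and Uevld held theirs in an intron. The region of Pex16, a peroxisome biogenesis gene, touched an exon. Those named for Trim24 and Daw1 lay 164954 and 2793 bp before the start, and that named for Mtbp lay 36430 bp before the start and touched an exon of another coding transcript.

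The 9 promoter regions included 1 at Stat5b, which encodes a STAT protein activated by IL-2. The region (chr11:100821953-100822731) lay with its middle 25 bp before an annotated start inside the gene and had percentiles of 67.1 and 54.2 in Th9 and 66.1 and 66.8 in Th17. A Th2 peak lay 1131 bp away. The strongest Stat5b promoter peak was open in all 6 libraries, at percentiles of 90.3 and 89.4 in Th9, 88.3 and 83.5 in Th17 and 75.5 and 77.1 in Th2. Every Th9 and Th17 value was above both Th2 values. Over all 12397 promoters called in all 6 libraries, 18.1% had this order and 8.82% the opposite order, so the Stat5b promoter shared its order with many others.

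The other promoter regions were weaker. That at Klk15, a kallikrein-family protease gene, had percentiles of 67.7 and 40.7 in Th9 and 67.7 and 48.5 in Th17. Others were at Ttll2, Tmed6, Foxs1, Unc93a, Tnni2 and Pde9a, with mean percentiles from 18.8 at Pde9a to 47.7 at Ttll2. At Klk15, Tmed6, Foxs1, Unc93a and Tnni2 no promoter peak was called in Th2, as the rule requires of the region. In some libraries the peak of the region lay outside the promoter window, as for Tmed6 in both Th17 libraries, Unc93a in Th9 replicate 1 and Pde9a in Th17 replicate 1.

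A gene was assigned a region when the region lay in the gene or when its start, up to 100 kb away, was the nearest to a region between genes. By this rule 458 of 20780 protein-coding genes had a region, 2.2%. Genes that contained a region were long, with a median of 146 kb against 17.6 kb over all protein-coding genes. The counts below are given beside the share of 2.2%, and they are not tests. In the lists of TGF-β and T helper genes, chosen with earlier results of these data known, 1 to 3 genes each had a region.

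Among 18 TGF-β ligands, receptors and activators, Tgfbr2 alone had a region, and it had 2, both in introns. The stronger, 60798 bp into the gene at chr9:116114287-116115218, had percentiles of 73.3 and 42.7 in Th9 and 84.1 and 83.8 in Th17, with folds of 3.16, 2.25, 3.94 and 3.85. It was higher in both Th17 libraries than in either Th9 library, and 52.5% of its window was repeat sequence. The other, 11122 bp into the gene at chr9:116163958-116164256, had percentiles of 44.0 and 33.0 in Th9 and 59.9 and 41.7 in Th17, close to the median of the set. The Tgfbr2 promoter was strong everywhere, at percentiles of 84.9 to 89.2 in Th9 and Th17 and 91.4 and 93.1 in Th2. Outside the shared regions the gene held 12, 11, 13 and 13 peaks in the Th9 and Th17 libraries and 10 and 11 in Th2.

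**Figure D4:**
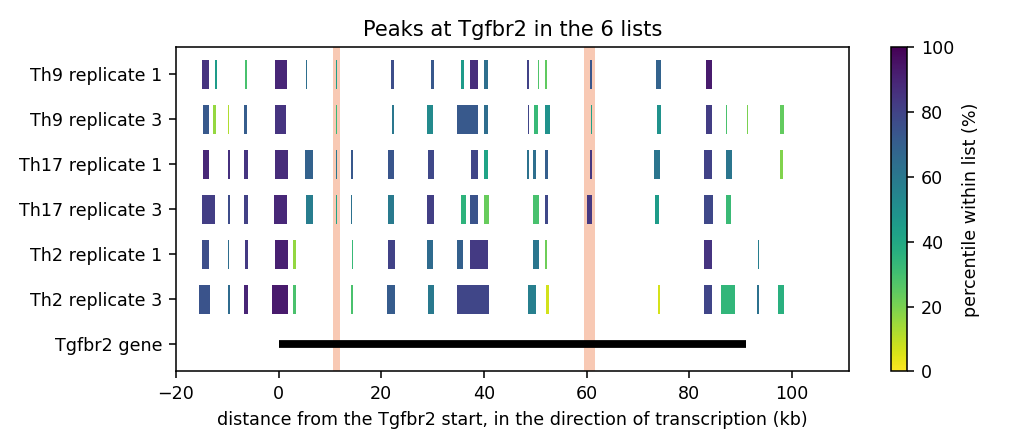
Peaks at Tgfbr2 in the 6 lists (rows), drawn to scale by distance from the gene start in kb (horizontal axis) and coloured by percentile within the list, with the gene as a black bar. Orange bands, wider than the regions, mark the positions of both shared regions, around 11.1 and 61.1 kb, where the 4 Th9 and Th17 rows have a peak and the Th2 rows have none; the promoter peak at 0 is present in all 6 rows.

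Of 19 SMAD and feedback genes, 2 had a region, and both encode HECT-type ubiquitin ligases that act on SMADs and the TGF-β receptor. The Smurf1 intronic region (chr5:144919480-144920168) had percentiles of 60.6 and 45.4 in Th9 and 81.7 and 76.6 in Th17. The Nedd4l intronic region had 78.5 and 55.1 in Th9 and 76.6 and 57.2 in Th17. Smurf1 was thus higher in Th17, as the stronger Tgfbr2 region was, and at Nedd4l the replicates differed more than the subsets. Both promoters were open in all 6 libraries, at percentiles from 89.2 to 95.4.

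Of 32 TGF-β response genes of T cells, P2rx7, an ATP-gated channel gene, and Rgs16, a regulator of G-protein signalling, had a region each. Both regions lay before the gene, by 5224 and 10010 bp, and both windows were nearly all repeat sequence (100% and 99.5%). Their percentiles varied widely, from 8.77 to 63.1 for P2rx7 and from 10.6 to 57.5 for Rgs16.

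Of the T helper lists, 3 of 21 Th9 genes, 1 of 20 Th17 genes and 1 of 16 Th2 genes had a region. The Th9 genes were Stat5b, Erg and Il1rn. Il1rn encodes the IL-1 receptor antagonist, and its region lay 1329 bp before the start, with percentiles of 65.0 and 44.6 in Th9 and 77.3 and 69.7 in Th17. Erg, an ETS-family transcription factor gene, held 3 regions with mean percentiles of 47.0, 38.6 and 31.4, and 2 of them were mostly repeat sequence. The Th17 gene was Il1r1, and the Th2 gene was Epas1, which encodes HIF-2α, with a region 43754 bp before the start. The Epas1 region had percentiles of 70.1 and 53.0 in Th9 and 65.2 and 29.7 in Th17. None of 19 AP-1, BATF and IRF genes, 12 T cell identity genes or 10 B cell, 10 myeloid and 10 CD8 and NK markers had a region. With 2.2% of all genes assigned a region, these zeros are not a result about the lists.

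Without the limit of 100 kb, 546 genes had a region, 488 of them 1 region, 46 had 2 and 12 had 3 or more. Cdh4, which encodes R-cadherin, had 8, with mean percentiles of 21.9 to 42.2. Tcerg1l and Obox2, an oocyte-specific homeobox gene, had 5 each, with mean percentiles of 18.7 to 35.8 and 10.6 to 43.0. Ajap1, Auts2, Chrm3, Eps8, Erg, Fgfr2 and Gli2 had 3 each. These are mostly long genes that held many peaks in every library, and none of their regions was among the 20 strongest. Cdh4, for example, held 91 to 142 peaks outside these regions in the Th9 and Th17 libraries and 114 and 60 in Th2.

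Genes that held a shared region were then compared in their other peaks. These peaks are not members, but they come from the lists that the rule used and are not independent of it. Of 290 such genes with a further peak in the body, 17 (5.86%) had more further peaks in each Th9 and Th17 library than in either Th2 library, and 17 (5.86%) had fewer. Over all 17907 genes with a peak, 0.732% had more and 6.86% had fewer. The comparison was repeated in genes of at least the median length of the holders, to set long genes beside long genes. There 6.85% of 146 holders and 1.01% of 1578 other genes had more, and 8.22% and 15.7% had fewer. In these lists, holders of a shared region thus had extra Th9 and Th17 peaks elsewhere in the body more often. Among long genes this rests on 10 holders and 16 other genes. The genes were not matched by their number of peaks, and the difference was not tested. Rbfox1, a neuronal splicing factor gene, held 11 and 6 further peaks in Th9, 20 and 11 in Th17, and 4 and 5 in Th2.

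The promoters of assigned genes and the neighbouring regions were near or below the background share of features higher in Th9 and Th17. Of the 458 genes with a region, 303 (66.2%) had a promoter peak in all 6 libraries, against 59.9% of all genes, and 67 had none in any library. Among the 303, 38 (12.5%) had higher percentiles in each Th9 and Th17 library than in both Th2 libraries, below the 18.1% over all such promoters. The opposite order was found in 34 (11.2%), against 8.82%. Of 786 regions called in all 6 libraries that lay within 20 kb of a shared region, 61 (7.76%) were higher in all 4 Th9 and Th17 libraries than in both Th2 libraries and 87 (11.1%) were lower. Over all 48805 such regions these shares were 7.31% and 11.7%, so the neighbours were near the background in both directions.

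The 200 bp windows were searched on either strand for 9 short words. Factors of the AP-1 family and BATF bind the word TGANTCA, and STAT proteins bind the word TTCNNNGAA. The SMAD words were the palindrome GTCTAGAC and the half-site CAGACA. The RUNX factors were represented by the word TGTGGTT, the ETS factor PU.1 by the word GAGGAAGT and the GATA factors by the word AGATAA. The factors TCF and LEF were represented by the word CTTTGAA, and the insulator protein CTCF was represented by the word AGGGGGC. None of these words contains another. A match is a description of the letters and not a bound site. GTCTAGAC was found in 7 of 655 windows (1.07%, Wilson 95% interval 0.519 to 2.19), against 0.179% of all regions, 0.152% of the Th9 and Th2 set, 0.143% of the Th2 and Th17 set and 0.137% of regions called in Th2 alone. Regions called in Th9 alone held it in 0.262% (0.133 to 0.517) and those called in Th17 alone in 0.172%. With windows of 300 bp GTCTAGAC was found in 10 (1.53%), against 0.283% of all regions and 0.459% of those called in Th9 alone. The intervals cover counting error only, and with 7 windows the share is imprecise. It also depended on single libraries: it was 0.360% without Th9 replicate 3 and 0.333% without Th2 replicate 1, where the rule admitted 1947 and 2704 regions, and 0.166% in bins of 1 kb. The half-site CAGACA was in 26.7% of windows (23.5 to 30.2), against 21.2% of all regions, 19.8% of the Th9 and Th2 set and 20.6% of the Th2 and Th17 set. Regions called in Th9 alone or Th17 alone were nearer, at 24.9% (23.4 to 26.5) and 23.2%, and the Th9 interval overlapped that of the shared regions. At a fold of at least 4 it was in 14.7% of windows (11 of 75), against 16.3% of all regions at that setting. In the top 20000 peaks of each list it was in 14.5%, against 16.2%. Both settings gave largely other regions, with 1 of each overlapping the set. CAGACA was in 28.5% at a fold of at least 2.2, 26.2% at a −log10 q of at least 5 and 20.8% in bins of 1 kb. Some of its matches were CA-rich repeats, as at Rgs16 and P2rx7, and in windows under 50% repeat the shares were 24.5% and, over all regions, 20.3%.

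Of the 7 palindrome regions, 5 were in the upper part of the set by mean percentile and 2 in the lower part (1.52% and 0.612% of these windows), and none was among the 20 strongest. That downstream of Amph, which encodes the endocytic protein amphiphysin, had percentiles of 55.8 and 62.0 in Th9 and 89.5 and 83.9 in Th17. That in an intron of Rbfox1 had 14.1 and 68.8 in Th9 and 87.6 and 67.6 in Th17 and was 137244 bp from a Th2 peak, the farthest of the set. Those named for Lcn9, Ppa2, Tmeff1 and Dsel had mean percentiles of 52.6, 45.4, 27.4 and 14.1, and that whose nearest start was Ifitm7 had 58.6. The Dsel region was over 100 kb from any start.

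The AP-1 and GATA words were less frequent than in the Th9 and Th2 set and in regions called in Th2 alone. TGANTCA was in 42 windows (6.41%, interval 4.78 to 8.55), against 9.25% of all regions, 18.5% of the Th9 and Th2 set, 14.4% of the Th2 and Th17 set and 19.3% of regions called in Th2 alone. Regions called in Th9 alone were as low, at 5.97%, and those called in Th17 alone were between, at 11.9%. AGATAA was in 29 windows (4.43%, 3.10 to 6.29), against 7.43% of all regions, 15.5% of the Th9 and Th2 set, 8.10% of the Th2 and Th17 set and 14.1% of Th2 alone. Regions called in all 6 libraries had AGATAA in 5.34%, inside that interval, and in windows under 50% repeat the shares were 6.005% here and 5.98% there. In such windows TGANTCA was in 8.55% (6.26 to 11.56), an interval that held the 11.45% of all regions. That of AGATAA (4.13 to 8.65) likewise held the 8.44% of all regions. Both intervals lay below the Th9 and Th2 set, at 19.4% for TGANTCA and 16.5% for AGATAA. TTCNNNGAA was in 5.34%, near the 5.48% of all regions and below the 13.8% of the Th9 and Th2 set. TGTGGTT (5.95% against 5.15% of all regions) and GAGGAAGT (1.98% against 1.97%) were near the background. The interval of AGGGGGC (2.14%, 1.28 to 3.56) held the 3.14% of all regions. CTTTGAA was in 12 windows (1.83%, 1.05 to 3.17), below the 3.43% of all regions. In windows under 50% repeat its share was 2.54%, with an interval (1.42 to 4.49) that held the 4.09% of all regions. The CTTTGAA share also changed with the peak filter, to 5.91% for folds from 2.2 upwards and 6.71% under the −log10 q filter of 5. It was 0.969% in the top 20000 peaks and 1.55% to 3.34% with a library left out. The upper part of the set by mean percentile, 328 regions, held TGANTCA in 8.54% and TGTGGTT in 9.15%, and the lower part held them in 4.28% and 2.75%.

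**Figure D5:**
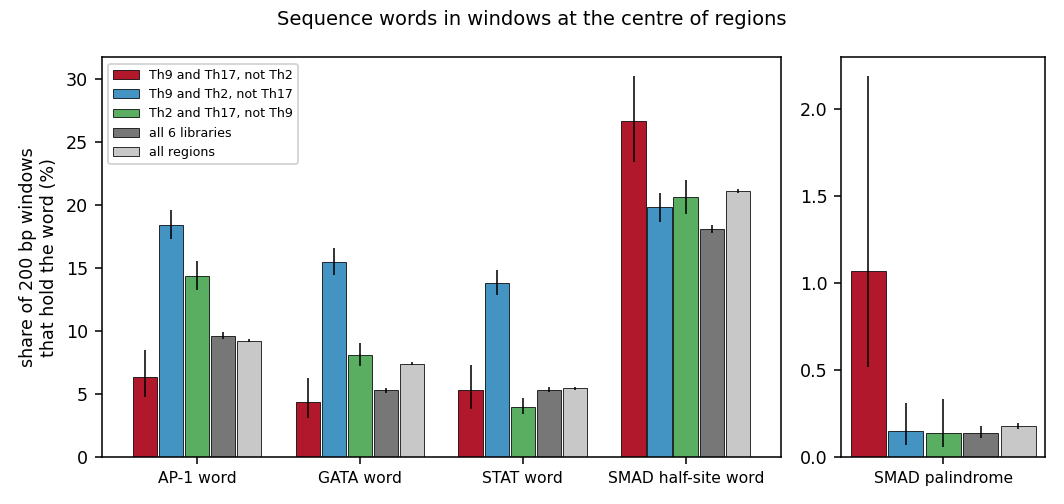
Share of 200 bp windows (vertical axis, %) that hold 5 sequence words, for 5 sets of regions, with Wilson 95% intervals as error bars and a separate scale for the SMAD palindrome. The words are those spelled out in the text; red bars, the Th9 and Th17 regions, are lowest for the AP-1 and GATA words (6.41% and 4.43%) and highest for both SMAD words (26.7% and 1.07%) of the 5 sets drawn, which leave out regions called in a single subset.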

How the data were processed

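ATAC-seq peak lists of 6 libraries were analysed, 2 each from Th9, Th17 and Th2 cultures, grouped by the labels. The authors trimmed reads with Trim Galore 0.4.3, aligned them to mm10 with Bowtie2, removed duplicates with Picard and called broad peaks with MACS2 2.1.0, for each library alone, in paired-fragment mode without a control or local background (versions from the submitters' processing notes). The calling cutoff was not given in the sources used here. The deposited lists hold positions, the fold enrichment over background (a ratio), the −log10 p-value and the −log10 q-value, and a display score that was not used. The lists hold no read counts, and background coverage was recovered from the deposited fold and p-value, assuming fold is coverage plus 1 over background plus 1 and p a Poisson tail.

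Regions, calls, percentiles, distances, gene assignments and words were computed in Python 3.11.15 with numpy 2.4.6, pandas 2.3.3 and scipy 1.17.1, and figures were drawn with matplotlib 3.10.9. Chromosome lengths were checked against GRCm38.p6, with 0 peaks past an end. Protein-coding genes came from the GENCODE M21 basic set and sequence from RefSeq GRCm38.p6. The 200 bp window was centred on the stretch that most libraries covered, and repeats are the lower-case bases of that genome. The region step and the recovery of depth were tested on simulated data.

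Named regions were the 20 with the highest mean percentile, those over promoters, those assigned to genes of the lists, the 10 genes with the most regions and at least 3, and those with a fold of at least 4 in all 4 libraries. Gene models named Gm plus a number, or with the suffix Rik, were not named. The palindrome regions and the gene given for its other peaks (Rbfox1) were chosen after their values were seen. The members and the gene lists were chosen with earlier results of these data known. A promoter region and a sequence are not reported here. No test was made. The alternatives used other peak filters, overlaps, bins, chromosomes, windows, promoters and annotations, and left out each library in turn.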

Additional observations from a re-analysis of the deposited data

How the results depend on the processing

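The regions themselves depended strongly on the settings. Their number was 75 with a fold of at least 4, 372 with a fold of at least 2.2, 149 with a −log10 q of at least 5, 993 with lists of equal length, 413 with the top 20000 peaks by fold, 1208 in bins of 1 kb and 9023 with a call in either library of each subset. Of these, 1, 97, 23, 374, 1, 764 and 655 overlapped a region of the set. Leaving out 1 library in turn gave 1008 to 2704 regions, the most without Th2 replicate 1 (2704), then Th9 replicate 3 (1947), Th2 replicate 3 (1519), Th17 replicate 3 (1453), Th9 replicate 1 (1132) and Th17 replicate 1 (1008), since the rule then asks for fewer libraries. The median of the mean percentile was 87.8 at a fold of at least 4, 63.9 at 2.2, 74.9 at a −log10 q of at least 5, 87.3 in the top 20000, 50.7 with at least 50% of the region covered and 27.3 with either library, where filters on fold themselves remove weak peaks, and 32.2 to 42.4 with a library left out. With a fold of at least 4, promoters took 32%, introns 30.7% and intergenic DNA 29.3%, and in the top 20000 promoters took 51.1%, exons 4.60%, introns 17.7% and intergenic DNA 26.6%. Introns and intergenic DNA took 46.5% and 41.7% at a fold of at least 2.2, 37.0% and 53.4% with lists of equal length, and 34.5% and 59.8% with either library, where exons took 4.65%. With a library left out, promoters took 0.992% to 3.88%, exons 5.08% to 9.55%, introns 36.2% to 42.4% and intergenic DNA 49.3% to 57.2%. Promoters took 2.60% with 2000 bp on either side of a start and 3.82% with all annotated genes, where intergenic DNA took 42.7%. GTCTAGAC was in 0% of windows at a fold of at least 4, 0.242% in the top 20000, 0.166% in bins, 0.177% with either library and 0.333% to 0.795% with a library left out. TGANTCA was in 9.14% at a fold of at least 2.2, 10.7% at a −log10 q of at least 5, 9.03% with at least 50% covered, 10.4% in windows of 300 bp and 5.58% to 7.19% with a library left out. AGATAA was in 2.66% in the top 20000, 6.45% with at least 50% covered, 8.77% in bins, 6.41% with either library, 6.72% in windows of 300 bp and 3.81% to 5.86% with a library left out. Adding chromosome X gave 698 regions, and asking for no Th2 peak within 1000 bp left 600. Asking for 50% coverage gave 465, of which 214 overlapped a region of the set. Windows under 50% repeat, an alternative chosen after seeing the data, held GTCTAGAC in 1.39%, TGANTCA in 8.55% and AGATAA in 6.005%. With assignment limited to 20 kb, the same counts held in the gene lists except that the Th2 list had 0. No paired analysis was possible because the counts and shares come from no test, so there was no fit to which a block could be added. Depth sets the lowest fold a list can hold, so a region absent from a Th2 list may lie under its limit.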

Other observations

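Strong peaks gave another set. When only the top 20000 peaks of each list by fold were used, 413 regions were called in all Th9 and Th17 libraries and in neither Th2 library, and 211 of them (51.1%) lay over promoters, against 33.9% of all regions at that setting. In the full lists, 412 of the 413 had a Th2 peak (99.8%), as did 98.8% of all regions at that setting. With a fold of at least 4 there were 75 regions, 24 of them (32%) over promoters, against 32.1% of all regions at that setting, and 74 (98.7%) had a Th2 peak in the full lists, against 99.0%. Neither share stood apart from that background.

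Many of the strongest windows held ACAGGAA or its reverse complement, a word of the ETS family of transcription factors that was added after the windows were seen. It was in 7 of the 20 strongest windows (35.0%). Over the whole set it was in 8.24% (Wilson 95% interval 6.37 to 10.6), near the 7.62% of all regions and below the 13.9% of regions called in Th17 alone. The share over the 20 strongest is a description of windows in which the word was first noticed, and it was not tested.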
